A study of Mus musculus with 2 samples.

Results

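The genes of the E2F, DP and retinoblastoma (Rb) pocket protein families were followed in NIH 3T3, a fibroblast line from mouse embryos. A probe set was counted when the platform annotation gave it exactly 1 gene symbol and that symbol was E2f1, E2f3, E2f4, E2f5, E2f6, Tfdp1, Tfdp2, Rb1, Rbl1 or Rbl2. This found 13 probe sets of 9 of the 10 genes, out of 20380 probe sets and 12393 genes with a single symbol. Tfdp2 had no such probe set and was not analysed here. The cells had received, by Lipofectamine, a plasmid for an HA-tagged, C-terminally truncated ATCE1 that is described as its nuclear form (ATCE1-C-del), or the same vector without an insert (empty vector). ATCE1 is a basic leucine zipper factor of the CREB family, now called Creb3l4, and the plasmid names point to the CMV promoter, which is active in most cells. RNA was taken at 48 hours and hybridised to 1 Affymetrix array per group, so the values below carry no error between cultures and were not tested. The sources used here give neither the share of cells that took up the plasmid nor the number of cultures behind each RNA.

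E2F proteins bind DNA as a dimer with a DP protein and control genes needed for entry into S phase. The pocket proteins, encoded by Rb1, Rbl1 (p107) and Rbl2 (p130), bind E2F and hold these genes silent until cyclin-dependent kinases phosphorylate them. E2F1 and E2F3 are known chiefly as activators and bind RB. E2F4 and E2F5 lack their own nuclear localisation signal, bind p107 and p130 and act mainly as repressors in resting cells. E2F6 lacks the pocket-binding and activation domains and represses through Polycomb proteins.

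Signals are MAS5 values on a linear scale. A signal under its array's median, which was 77.4 for ATCE1-C-del and 75.9 for empty vector, was raised to that median (the floor) before ATCE1-C-del was divided by empty vector and the log2 taken. A probe set was measured when at least 1 array reached the floor, and a gene is represented by the measured probe set whose mean log2 signal is highest. Of the 13 probe sets, 10 were measured, all of them on both arrays, and these stood for 7 genes. Of 6807 measured genes on the arrays the median log2 ratio was -0.01, and the middle 95% ran from -0.48 to 0.45. The cells carried the 9 fibroblast markers looked for, at signals from 1072 to 5914 with ATCE1-C-del and from 1459 to 5607 with empty vector. No epithelial, endothelial, muscle or spermatid marker reached the floor, and of 5 macrophage markers only Cd68 and Cd14 did. Creb3l4 itself read 18.0 with ATCE1-C-del, against 20.7 with empty vector, under the floor on either array. The sources used here do not place its probes relative to the truncated insert, so they leave unchecked which culture held the insert.

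E2f4 was the member that stood apart. Its single probe set, 1451480_at, read 243.8 on the ATCE1-C-del array, against 122.6 on the empty vector array, so that E2f4 was 1.99-fold higher with ATCE1-C-del (log2 ratio 0.99). Both signals were above the floor. This was the 6th highest log2 ratio of the 6807 measured genes. Among the 1000 measured probe sets nearest to it in mean signal, only 3 had a higher ratio, and 95% of the window lay between -0.52 and 0.53 on the log2 scale. E2f4 was the only one of the 7 measured member genes at least 1.5-fold higher, and none was at least 1.5-fold lower. Over all measured genes, 0.94% reached 1.5-fold in the higher direction and 1.07% in the lower. By probe set the count was 1 of 10 higher and 0 lower, beside 1.12% and 1.39% of the 11631 measured probe sets. No second probe set has E2f4 as its only symbol in the annotation used, so the value rests on 1 probe set on 1 array per group. With the floor at the 75th percentile both E2f4 signals lay under it and the gene was no longer measured, and at a threshold of 2-fold it no longer counted.

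E2f5, which encodes the closest relative of E2F4 in the family, was higher by a smaller amount. Its probe set 1417444_at read 280.7 on the ATCE1-C-del array, against 218.8 on the empty vector array, which is 1.28-fold higher (log2 ratio 0.36). Its other probe set, 1460207_s_at, read 274.9 with ATCE1-C-del, against 212.4 with empty vector, 1.29-fold higher (log2 ratio 0.37). The log2 ratios of the E2f5 probe sets differed by only 0.013, but both were designed from the same sequence record and share each array, so they are not separate observations of the cells. Both lay inside the range of probe sets with like signal, where 55 and 56 of 1000 had a higher ratio. The 1.28-fold difference is under the 1.5-fold threshold. In RNA from whole cultures, a change in the share of cells that express a gene and a change in RNA per cell cannot be told apart, which holds for every ratio given here.

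**Figure D1:**
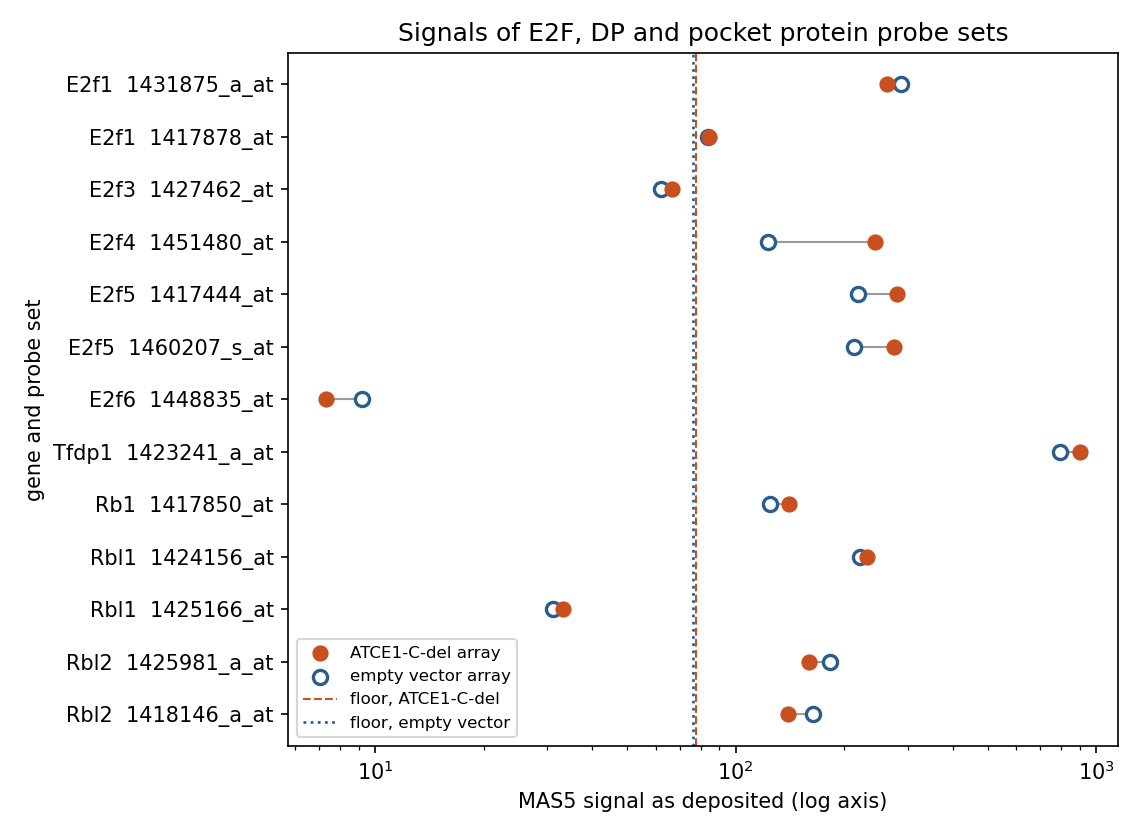
MAS5 signals as deposited (log axis) of the 13 probe sets, 1 row each, with the ATCE1-C-del array as filled points, the empty vector array as open points and the floor of each array as a vertical line. The points of E2f4 lie farthest apart among the probe sets above the floor, at 243.8 against 122.6, and the probe sets of E2f3 and E2f6 and the second one of Rbl1 lie under the floor on both arrays.

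Of the activator genes only E2f1 was measured, and its ratio was near 0. E2f1 is itself a target of E2F and rises as cells pass into S phase. Its probe set 1431875_a_at read 262.1 on the ATCE1-C-del array, against 287.5 on the empty vector array, 1.10-fold lower (log2 ratio -0.13). The other E2f1 probe set, 1417878_at, read 84.5 with ATCE1-C-del, against 84.0 with empty vector, close to the floor on both arrays. Its log2 ratio was 0.01. The E2f1 probe sets thus differed by 0.14 in log2 ratio. By the differences between probe sets of 2451 genes, 1 probe set's ratio carries an SD of 0.20, and a difference between probe sets a larger one. E2f3 had signals of 66.6 with ATCE1-C-del, against 62.1 with empty vector, each under the floor, so no fold is given. E2f6, the pocket-independent repressor, had 7.3 with ATCE1-C-del, against 9.2 with empty vector, far under the floor on both arrays, and likewise has no fold.

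Tfdp1 encodes DP1, the dimer partner that E2F1 to E2F6 need for tight DNA binding. It read 900.7 on the ATCE1-C-del array, against 795.4 on the empty vector array, 1.13-fold higher (log2 ratio 0.18). The ratio lay inside the range of the 1000 probe sets of nearest signal, of which 133 were higher.

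The pocket protein genes lay on both sides of 0. Rb1, the retinoblastoma gene, read 140.9 with ATCE1-C-del, against 124.4 with empty vector, 1.13-fold higher (log2 ratio 0.18). Rbl1, a gene that E2F activates in cycling cells, read 231.2 on the ATCE1-C-del array, against 220.6 on the empty vector array, 1.05-fold higher (log2 ratio 0.07). Its other probe set, 1425166_at, read 33.1 with ATCE1-C-del, against 31.1 with empty vector, under the floor on both arrays. Rbl2 encodes p130, the pocket protein that prevails in resting cells and there binds E2F4. Its probe set 1425981_a_at read 159.9 on the ATCE1-C-del array, against 182.9 on the empty vector array, 1.14-fold lower (log2 ratio -0.19). The other Rbl2 probe set, 1418146_a_at, was 1.17-fold lower, at 140.1 with ATCE1-C-del, against 164.0 with empty vector (log2 ratio -0.23). None of these pocket protein ratios left the range of probe sets with like signal.

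**Figure D2:**
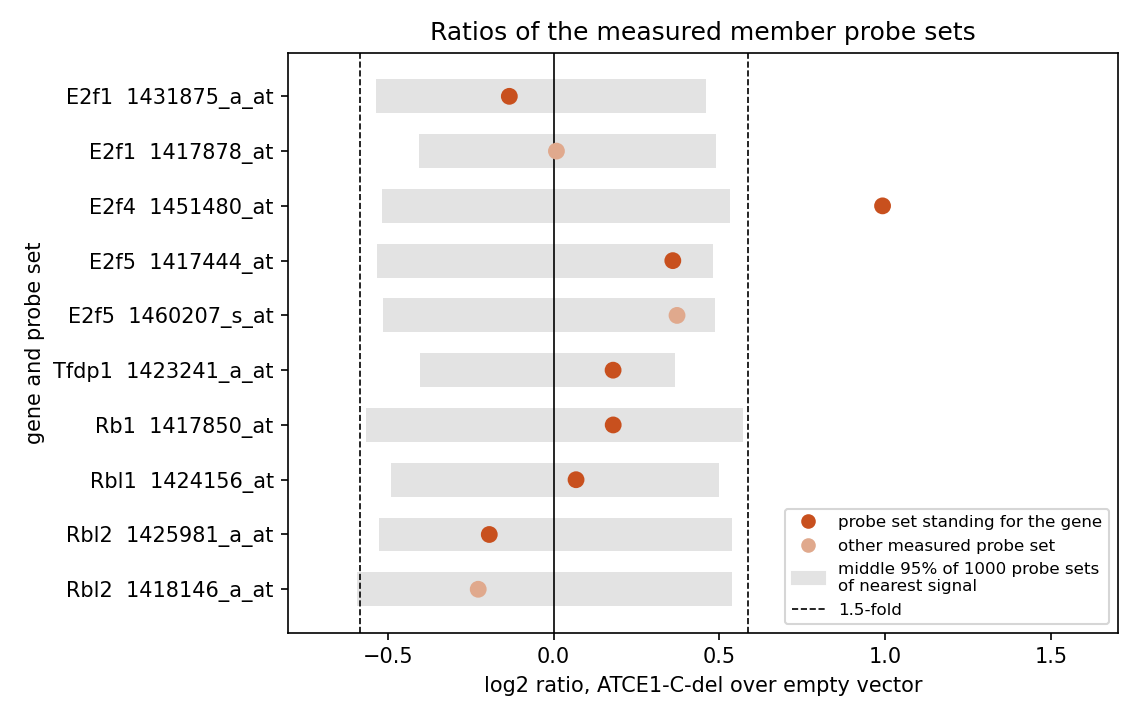
Log2 ratio (ATCE1-C-del over empty vector) for the 10 measured member probe sets (points), with the middle 95% of the log2 ratios of the 1000 measured probe sets nearest in mean signal (grey bars) and 1.5-fold (dashed lines). Only E2f4, at 0.99, lies outside its grey bar.

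Of the 7 measured member genes, 5 were higher with ATCE1-C-del (E2f4, E2f5, Rb1, Tfdp1 and Rbl1) and 2 were lower (Rbl2 and E2f1), while 48.7% of all measured genes were higher. The members' median log2 ratio was 0.18 with E2f4 and 0.12 without it. The 6 genes other than E2f4 all lay within 1.3-fold, which 4.41% of measured genes exceeded as higher and 5.36% as lower. The lower sign of E2f1 and Rbl2 held under the scalings by trimmed mean, deposited signal, array median, quantile and lowess, but scaling to the hybridisation controls put them at 0.11 and 0.05, a scaling that took the median over measured genes to 0.24. Relative to that median both were still lower. For E2f1 the sign also depended on the probe set, as given above.

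**Figure D3:**
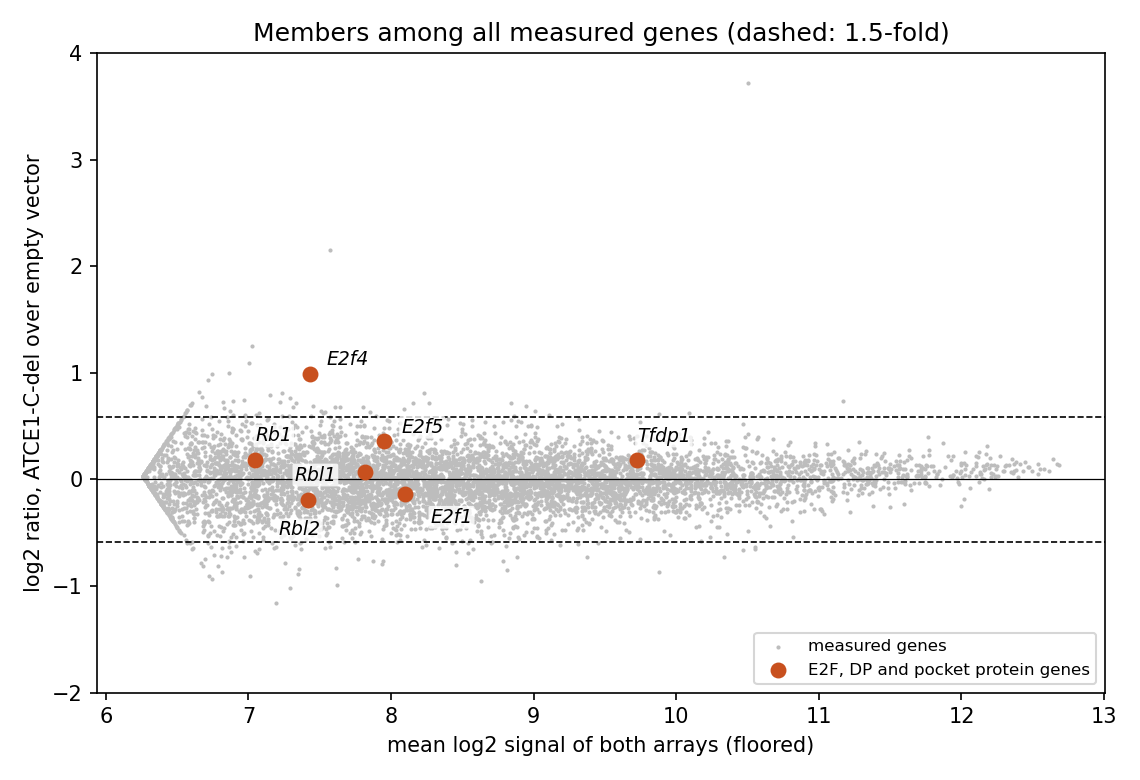
Log2 ratio (ATCE1-C-del over empty vector) against the mean floored log2 signal for the 6807 measured genes (grey), with the 7 measured members in colour and 1.5-fold as dashed lines. E2f4 lies above the cloud at 0.99, and the other 6 members lie within it.

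The promoter windows of the members were searched because E2F binds several of their genes and because ATCE1 belongs to a family that binds the cAMP response element (CRE). Windows run from 250 bases before to 50 bases after the gene start (RefSeq, GRCm38.p6). The table used held 10 windows of 7 members and none of E2f4, E2f5 or Rb1. An E2F word was TTTCCCGC, TTTGGCGC, TTTCGCGC or TTTGCCGC on either strand. Such a word was present in 4 of the 10 windows, which belong to Tfdp1, Rbl1 and E2f3, and in 2.26% of all 32851 windows. Those of the measured members are printed 5′ to 3′ on the gene's strand to show where the word lies, with the E2F word in capitals. The Rbl1 window is chr2:157204485-157204784, minus strand, with its word 18 bases before the gene start. The Tfdp1 window, the first of 2 overlapping ones that hold the same word, is chr8:13338501-13338800, plus strand, with its word on the opposite strand, 43 bases before the start.
Rbl1: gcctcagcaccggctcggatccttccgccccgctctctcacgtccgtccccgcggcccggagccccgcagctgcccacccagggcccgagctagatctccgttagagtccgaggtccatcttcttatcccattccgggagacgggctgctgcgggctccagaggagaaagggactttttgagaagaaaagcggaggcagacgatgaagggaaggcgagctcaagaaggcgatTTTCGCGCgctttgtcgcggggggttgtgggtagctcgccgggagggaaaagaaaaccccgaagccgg
Tfdp1: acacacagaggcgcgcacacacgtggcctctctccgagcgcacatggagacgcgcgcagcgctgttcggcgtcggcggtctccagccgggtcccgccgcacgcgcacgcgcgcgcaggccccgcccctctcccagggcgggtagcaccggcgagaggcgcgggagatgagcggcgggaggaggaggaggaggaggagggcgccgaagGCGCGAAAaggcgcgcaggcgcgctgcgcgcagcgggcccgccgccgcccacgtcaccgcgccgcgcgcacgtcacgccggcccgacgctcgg

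The full CRE, TGACGTCA, was in no member window, against 1.79% of all windows. The shorter word TGACG, which is part of the full CRE, was in windows of 4 members (E2f1, E2f3, Rbl2 and Tfdp1). It was in 20.8% of all windows, a share counted by window and not by gene. TGACGTGG, a word of the unfolded protein response that also holds TGACG, was in the windows of Tfdp1 and in 0.676% of all windows. A match describes the letters and does not show binding. The E2f1 window reads in part as protein-coding sequence, so its words, or the lack of an E2F word, may not describe the E2f1 promoter. Genes with and without these words were compared by counts and medians. Of 294 measured genes with an E2F word, 171 were higher with ATCE1-C-del and 123 were lower, and the median was 0.04 on the log2 scale, while 5333 genes with windows but without the word had a median of -0.01. Thus 58.2% of genes with the word were higher, against 48.3% of those without it. At 1.5-fold, 0.680% of genes with the word were higher and 0.340% lower, against 0.919% and 1.07% of those without it, and these shares rest on 2 genes and 1 gene with the word. These differences were not tested. The 216 genes with a full CRE had a median of 0.01 and the 5411 without it -0.01. The share higher was 52.8% with a full CRE, against 48.6% without it. For TGACG it was 51.5% against 47.1%, and for TGACGTGG 55.1% of 69 genes against 48.7%. Each word searched thus had the larger share with a log2 ratio above 0. At 1.5-fold the share higher was smaller with a full CRE, 0.463% against 0.924% without it. It was also smaller with TGACGTGG, 0% against 0.918%, as with an E2F word, and larger only with TGACG. The share at least 1.5-fold lower was smaller with each word. Windows with a full CRE or TGACGTGG also hold TGACG, so these sets overlap. None of these differences was tested.

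The known targets of E2F were slightly higher. A list of 38 genes that E2F activates for S phase entry had 34 genes with a probe set, of which 32 were measured. All 32 had a log2 ratio above 0, where 48.7% of all measured genes did, with a median of 0.26 and a range from 0.01 to 0.71. For 3 of them (Cdc6, Orc1 and Ung) the empty vector signal was under the floor, and they were counted at their lower bound. These 3 were measured only through the ATCE1-C-del array, so their ratios could only come out above 0 and say nothing on direction. At 1.5-fold only Rpa2 and Mcm2 counted as higher and none as lower, beside the 0.94% and 1.07% over all genes. The count at 1.5-fold was 14 with scaling to the hybridisation controls, where 5.99% of all measured genes were at least 1.5-fold higher. It was 1 with array median scaling, the mean over probe sets or the floor at the 75th percentile. Of all measured genes 0.690%, 0.735% and 0.244% were then at least 1.5-fold higher, in that order. At 1.3-fold 11 were higher and none lower, beside 4.41% and 5.36% of all measured genes. This list overlaps cell cycle genes already known from these arrays to be higher, so it adds no independent evidence of direction.

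Rpa2, a subunit of the single-strand DNA binding protein RPA, read 206.3 on the ATCE1-C-del array, against 125.9 on the empty vector array, 1.64-fold higher. On its other probe set the log2 ratio was 0.55. Mcm2, of the replicative helicase, read 1165.5 with ATCE1-C-del, against 761.0 with empty vector, 1.53-fold higher, but its other probe set lay on the other side at a log2 ratio of -0.45. Named after their values were seen, the DNA ligase gene Lig1 was 1.46-fold higher, and the lowest ratios belonged to Pcna, the sliding clamp, at 0.08 and Uhrf1, a maintenance factor of DNA methylation, at 0.01. The other probe set of Uhrf1 was at 0.75. For 16 of the list's genes a second probe set was above the floor on both arrays, and 15 of these second probe sets were higher, with a median of 0.23, where 51.8% of those of 2451 genes were higher. E2f8, which encodes an atypical E2F that represses E2F targets and needs no DP, was 1.37-fold higher, at 138.8 with ATCE1-C-del, against 101.1 with empty vector. E2f2 and E2f7 had no probe set with exactly 1 symbol in the annotation used.

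The genes that control the pocket proteins were mixed. Of 16 cyclin, kinase and inhibitor genes, 10 were measured, of which 7 were higher and 3 lower, around a median log2 ratio of 0.14, where 48.7% of all measured genes were higher. None passed 1.5-fold, a threshold that 0.94% of all measured genes passed as higher and 1.07% as lower. For 5 of the list's genes a second probe set was above the floor on both arrays, and 4 of these were higher. Only 2 of the 5 lay on the same side of 0 as the first, where 60.2% did over 2451 genes. With the mean over probe sets the list median was 0.05. Ccne1 and Ccna2, the cyclins E1 and A2 and themselves E2F targets, were 1.36-fold and 1.35-fold higher. Ccnd1, the cyclin D1 that drives the first phosphorylation of RB, was 1.26-fold higher at 519.7 with ATCE1-C-del, against 413.4 with empty vector, and its other probe sets lay at log2 ratios of -0.07 and 0.40. Cdkn2d, the Cdk4 and Cdk6 inhibitor p19, was 1.23-fold higher. Cdk2, Cdk6, Ccne2, Cdkn1c, Cdkn2a and Cdkn2b were under the floor on both arrays.

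The MuvB core joins p130 and E2F4 in the DREAM complex of resting cells, and later B-Myb and FoxM1. Of 5 such genes with a probe set, 3 were measured. The MuvB subunit gene Lin37 read 118.3 on the ATCE1-C-del array, against 150.8 on the empty vector array, 1.27-fold lower. Rbbp4, a histone-binding subunit shared with other complexes, was 1.15-fold higher. Foxm1, a factor of the G2 genes, was 1.13-fold higher on its representing probe set, with log2 ratios of 0.74 and 0.45 on its other probe sets. Lin9 and Mybl2 stayed under the floor on both arrays.

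Corepressors that pocket proteins recruit lay around 0, with 8 of 14 measured genes higher and 6 lower, where 48.7% of all measured genes were higher. Their median log2 ratio was 0.03, which array median scaling turned to -0.0025. Kdm5a, the RB-binding histone demethylase, read 166.9 on the ATCE1-C-del array, against 244.0 on the empty vector array, 1.46-fold lower and the farthest from 0 of this list. Hdac3 was 1.22-fold higher, while Hdac1 was 1.16-fold lower and Arid4b, a relative of the RB-binding protein Arid4a, 1.20-fold lower. Of the Polycomb partners of E2F6, 6 were measured, 2 higher and 4 lower, where 51.3% of all measured genes were lower. Their median was -0.07, which scaling to the hybridisation controls turned to 0.18. With both arrays required above the floor it was -0.01. Yaf2 was 1.27-fold higher. Mga, the DNA-binding scaffold of that complex, had a signal of 74.7 with ATCE1-C-del, which is under the floor, against 97.8 with empty vector, and so was at least 1.26-fold lower. Mga was measured only through the empty vector array, so its place among the lower genes owes to that filter. Rnf2, a ubiquitin ligase subunit, and Max, the partner of Mga, were 1.11-fold and 1.09-fold lower. None of the genes of these 4 control and cofactor lists passed 1.5-fold, which for lists this short is near the 0.94% higher and 1.07% lower over all measured genes. Scaled to the hybridisation controls, 2 genes of the cyclin list and 1 partner of E2F6 passed it as higher. That scaling put 5.99% of all measured genes past it as higher.

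**Figure D4:**
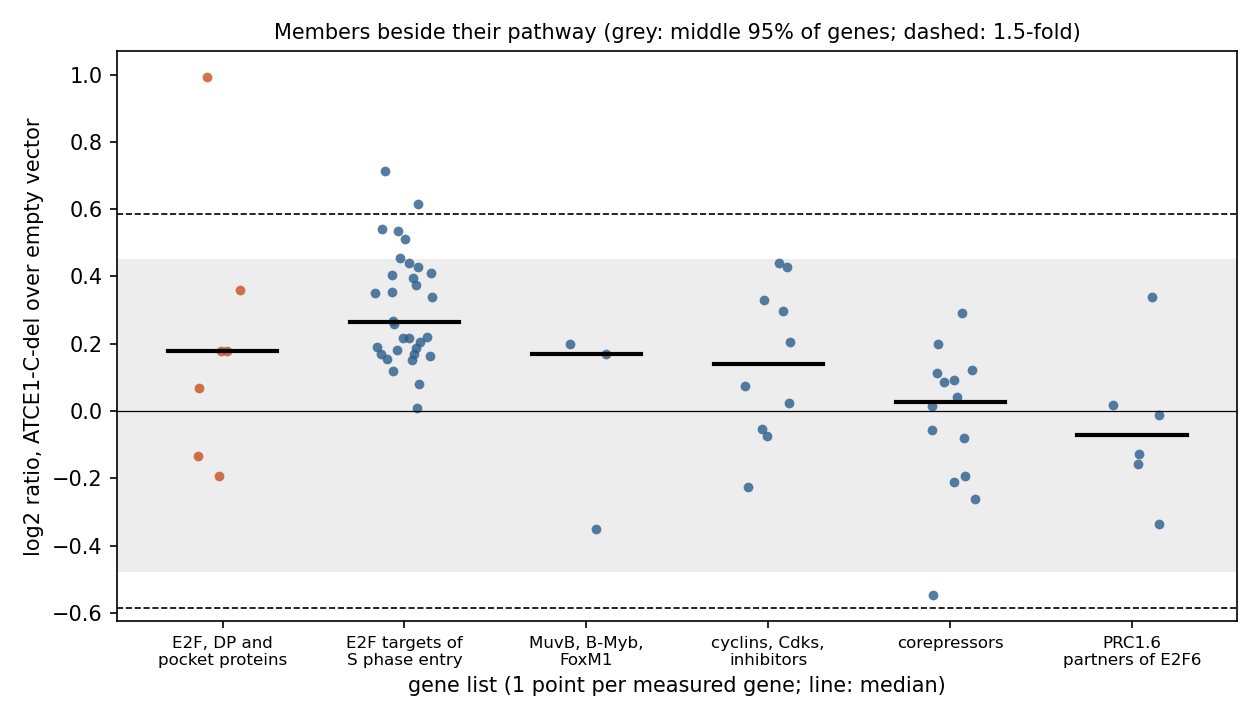
Log2 ratio (ATCE1-C-del over empty vector) for each measured gene (points) of the E2F, DP and pocket protein families and of 5 lists of their targets, regulators and partners, with list medians (black lines), the middle 95% of all measured genes (grey band) and 1.5-fold (dashed lines). The medians run from 0.26 for the E2F targets to -0.07 for the Polycomb partners of E2F6, and only E2f4, Rpa2 and Mcm2 lie above 1.5-fold.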

How the data were processed

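Total RNA of transfected cells was read on 2 Affymetrix arrays, 1 per group. The submitters' processing notes name MAS5, without a version, and the intensity values the authors deposited are its linear signals. The sources used here give no target value, mask or detection call. Each array's mean after trimming 2% at each end was 250.1, and signals were scaled to equal trimmed means. The 64 control probe sets were left out. Gene names came from the platform annotation, which gave several symbols to 691 probe sets and none to 1606. The floor keeps noise near background from giving large ratios, and it replaces no detection call. With 1 array per group no test was possible, precision is limited by the number of arrays, and changes were counted at 1.5-fold.

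The member genes, gene lists and named genes were chosen with earlier results of these arrays known. Named were all members, Creb3l4, and from each list the genes past 1.5-fold or otherwise up to 4 with the largest absolute ratio. Scaling, floor, threshold, probe sets open to several transcripts and averaging over probe sets were varied. The ratio and call steps were tested on simulated data. Ratios used numpy 2.4.6 and pandas 2.3.3 under Python 3.11.15, trimmed means scipy 1.17.1, the lowess alternative statsmodels 0.14.6 with a span of 0.3, and plots matplotlib 3.10.9.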

Additional observations from a re-analysis of the deposited data

How the results depend on the processing

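Values were compared with the 1.5-fold counts and the medians of the report, a median being said to move when it changed by more than 0.20, the SD of 1 probe set's log2 ratio, and a count when it changed by more than 1.5 times. No paired analysis was possible because each group had 1 array, and no replicate could be left out. Scaling to the hybridisation controls, bacterial and phage RNAs added to each sample, took the median over measured genes to 0.24. It gave 2 higher member genes (E2f4 and E2f5), 3 higher member probe sets and a member median of 0.43. With it, 5.99% of all measured genes were at least 1.5-fold higher. Medians moved to 0.51 for the E2F targets (14 at least 1.5-fold higher), 0.42 for the MuvB list, 0.39 for the cyclins, kinases and inhibitors (2 higher), 0.27 for the corepressors and 0.18 for the E2F6 partners (1 higher). A floor at the 75th percentile left 0 member genes and 0 member probe sets higher. E2f4 lies under that floor on both arrays, and 1 member gene, Tfdp1, was measured at all. The E2F targets had 1 higher with that floor, beside 0.244% of all measured genes as higher and 0.515% as lower. At 2-fold 0 member genes, 0 member probe sets and 0 E2F targets counted, beside 0.0735% of all measured genes as higher. At 1.3-fold the E2F targets had 11 higher, the cyclin list 2 higher and the corepressors 1 lower. Over all measured genes 4.41% were higher and 5.36% lower at 1.3-fold. At the 25th percentile floor the E2F targets had 1 lower and the MuvB list and the E2F6 partners 1 higher each. Without a floor (signals under 1 set to 1) these counts were also 1, 1 and 1, and the cyclin list had 3 higher. Over all measured genes, 8.13% were at least 1.5-fold higher and 2.85% lower at the 25th percentile floor. Without a floor the shares were 15.6% and 8.36%. Array medians and the mean over probe sets each left 1 E2F target at 1.5-fold, beside 0.690% and 0.735% of all measured genes as higher. Leaving out probe sets that can match several transcripts left 5 member genes. E2f4 kept log2 ratios from 0.96 to 1.24 wherever it was measured. In the other 210 comparisons of a count or median with an alternative, the value stayed within these limits, which allow a count of 2 to become 3, as that of the E2F targets at 1.5-fold did with the floor at the 25th percentile or no floor.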
